A study of Arabidopsis thaliana with 12 samples.

Results

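ORA59, ERF1 and 7 related ETHYLENE RESPONSE FACTOR (ERF) genes were followed across 4 genotypes of Arabidopsis thaliana seedlings. The 9 genes were chosen by locus from the 33602 genes of the RNA-seq table, as named regulators of the branch and with earlier results of these data known. They are ORA59 (AT1G06160), ERF1 (AT3G23240), ERF1A (AT4G17500), ERF2 (AT5G47220), ERF5 (AT5G47230), ERF6 (AT4G17490), ERF104 (AT5G61600), ERF4 (AT3G15210) and ERF11 (AT1G28370). Of these, 8 were abundant enough to be tested and ERF1 was not.

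All plants were of the Col-0 ecotype. The jazQ line carries mutations in 5 genes that encode JASMONATE ZIM-DOMAIN (JAZ) repressors (JAZ1, JAZ3, JAZ4, JAZ9 and JAZ10). The mycT line carries insertion alleles of MYC2, MYC3 and MYC4 (jin1-7, also called myc2-1, with myc3-1 and myc4-1). The jazQ mycT line combines all 8 mutations, and Col-0 is the wild type. Each genotype had 3 libraries, each made from whole seedlings, roots included, harvested 8 d after sowing in continuous light with no jasmonate (JA) added to the medium. About 200 seedlings were pooled for each library, so a library is an average over plants, and in such bulk RNA fewer cells expressing a gene and less RNA per cell cannot be told apart. The Col-0 and jazQ libraries also belong to an earlier deposit and were processed in parallel with the others.

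ERF proteins bind DNA through an AP2/ERF domain, and many recognise the GCC-box of defence gene promoters. ORA59 and ERF1 are induced by JA together with ethylene, and they activate plant defensin genes such as PDF1.2a in a branch of JA signalling that protects against necrotrophic fungi. MYC2, MYC3 and MYC4, which JAZ proteins repress, drive the other branch of JA signalling, directed at insects and wounding, and MYC2 is known to oppose the ERF branch. MYC proteins bind the G-box, and the ethylene factors EIN3 and EIL1, which JAZ proteins also bind, act upstream of ERF1 and ORA59.

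The sequences before the annotated gene starts of 5 members are printed, namely those called in a comparison with all 12 libraries and ERF4, which was not. ERF5, ERF6 and ERF11, also not called, and ERF1, not tested, are not printed. Every member with a G-box in the 300 bases before its start is among the 5. The sequence before PDF1.2a is printed because that gene is the usual readout of the branch. Each run is the 300 bases before the gene start, read 5′ to 3′ on the strand of the gene, from the RefSeq TAIR10.1 assembly. Capitals mark the G-box (CACGTG), the GCC-box (GCCGCC) and the G-box variant CACATG, on either strand. ORA59 (chr1:1882607-1882906, plus strand), ERF1A (chr4:9758903-9759202, plus strand) and ERF2 (chr5:19172957-19173256, minus strand) were lower in jazQ. ERF4 (chr3:5121003-5121302, plus strand) was not called in any comparison, and ERF104 (chr5:24767733-24768032, minus strand) was lower in jazQ mycT than in mycT. The PDF1.2a window is chr5:17907639-17907938 on the minus strand.
ORA59: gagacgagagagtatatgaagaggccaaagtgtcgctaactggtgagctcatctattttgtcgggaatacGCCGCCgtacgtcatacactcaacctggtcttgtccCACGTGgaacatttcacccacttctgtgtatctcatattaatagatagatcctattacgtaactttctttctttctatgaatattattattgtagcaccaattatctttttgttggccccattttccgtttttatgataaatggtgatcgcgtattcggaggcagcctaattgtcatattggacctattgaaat
ERF1A: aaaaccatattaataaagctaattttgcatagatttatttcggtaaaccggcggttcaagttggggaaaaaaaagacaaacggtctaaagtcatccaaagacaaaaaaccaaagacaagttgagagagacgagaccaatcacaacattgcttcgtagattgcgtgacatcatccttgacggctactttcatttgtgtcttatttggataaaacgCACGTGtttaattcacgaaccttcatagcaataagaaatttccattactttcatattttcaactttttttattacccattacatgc
ERF2: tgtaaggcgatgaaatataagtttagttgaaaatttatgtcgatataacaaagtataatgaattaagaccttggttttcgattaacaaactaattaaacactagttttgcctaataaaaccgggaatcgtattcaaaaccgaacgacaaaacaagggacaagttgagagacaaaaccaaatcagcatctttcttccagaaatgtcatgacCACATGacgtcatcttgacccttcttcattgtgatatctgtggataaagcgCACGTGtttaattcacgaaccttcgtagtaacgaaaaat
ERF4: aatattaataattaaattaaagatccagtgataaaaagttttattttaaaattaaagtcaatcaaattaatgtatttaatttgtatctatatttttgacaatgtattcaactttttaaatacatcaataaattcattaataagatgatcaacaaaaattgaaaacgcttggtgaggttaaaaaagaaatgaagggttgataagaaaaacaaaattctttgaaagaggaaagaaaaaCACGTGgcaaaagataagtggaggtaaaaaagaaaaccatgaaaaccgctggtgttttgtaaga
ERF104: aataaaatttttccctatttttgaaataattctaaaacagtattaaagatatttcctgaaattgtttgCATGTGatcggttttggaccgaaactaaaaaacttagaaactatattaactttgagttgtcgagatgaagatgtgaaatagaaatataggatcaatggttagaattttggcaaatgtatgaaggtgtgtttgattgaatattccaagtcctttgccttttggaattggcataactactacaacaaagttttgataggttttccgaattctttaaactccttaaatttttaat
PDF1.2a: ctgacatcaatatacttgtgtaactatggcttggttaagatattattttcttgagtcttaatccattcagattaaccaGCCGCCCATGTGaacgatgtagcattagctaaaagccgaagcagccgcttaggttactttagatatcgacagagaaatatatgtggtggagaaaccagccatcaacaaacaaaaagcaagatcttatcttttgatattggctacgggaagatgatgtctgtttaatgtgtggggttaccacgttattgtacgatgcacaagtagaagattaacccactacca

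The G-box was present in 4 of the 9 members' windows, those of ORA59, ERF1A, ERF2 and ERF4, and in 7.09% of the 27444 windows of this length before annotated genes. It began 194 bp before the gene start in ORA59, 86 bp before it in ERF1A, 39 bp before it in ERF2 and 64 bp before it in ERF4. The GCC-box was present before ORA59 and ERF11, and in 2.26% of all windows, so within this window ORA59 was the 1 member with both motifs. The variant CACATG was present before ERF2 and ERF104, and in 13.1% of all windows. In PDF1.2a the GCC-box ends where a CACATG match on the other strand begins. ERF1A and ERF2 shared a stretch of 26 bases that holds the G-box of each, and no other window of the 27444 held it:
Shared stretch: cgCACGTGtttaattcacgaaccttc
In the longer window of 1000 bp the G-box was found before 5 of the 9 members and 14.8% of all genes, the GCC-box before 2 members and 8.44%, and CACATG before 5 members and 37.7%. ERF11 also had both the G-box, at 303 bp, and the GCC-box there. A match to letters is not evidence that a protein binds there, and the motifs and the shared stretch were looked for after the levels were known.

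**Figure D1:**
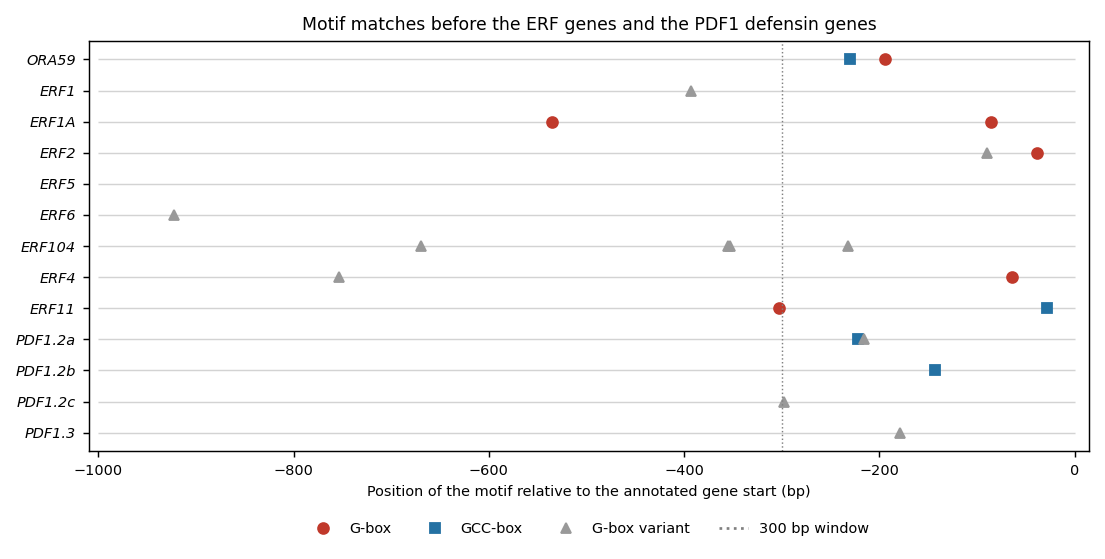
Positions of motif matches in the 1000 bp before the annotated start (0 on the x axis, in bp) of the 9 ERF genes and 4 defensin genes, with a dotted line at 300 bp. G-boxes (circles) lie within 300 bp of ORA59, ERF1A, ERF2 and ERF4, and GCC-boxes (squares) within 300 bp of ORA59, ERF11, PDF1.2a and PDF1.2b.

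The members lie on 4 chromosomes and each is annotated as 1 exon without an intron. ERF6 (chr4:9752824-9754161, minus strand) and ERF1A (chr4:9759203-9760391, plus strand) are next to each other and diverge across a gap of 5041 bp. ERF2 (chr5:19171643-19172956, minus strand) and ERF5 (chr5:19179881-19181182, plus strand) also diverge, with a single annotated locus between them. The remaining genes are ORA59 (chr1:1882907-1883992, plus strand), ERF11 (chr1:9955774-9956980, minus strand), ERF4 (chr3:5121303-5122562, plus strand), ERF1 (chr3:8295617-8296604, plus strand) and ERF104 (chr5:24766344-24767732, minus strand). The left neighbours of ERF1, ERF11 and ERF104 are ERF genes as well (ERF98, ERF12 and ERF107). No stretch of 50 bases, the length of the reads, was found elsewhere in the nuclear genome for any of the 9 members, so reads from one member do not match another perfectly.

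Libraries held between 12336090 and 26347184 assigned reads. Ribosomal RNA took 6.02% of the counts in jazQ mycT replicate 1 and 2.56% in mycT replicate 1, against 0.403% to 1.18% in the other 10 libraries. Levels of the mutated genes differed in sign. JAZ1 lay between 4.25 and 6.05 TPM (transcript abundance scaled to gene length and library size) in the 6 libraries with the jaz mutations, against 32.34 to 59.95 TPM in the 6 without them. JAZ4 was also lower in all 6, JAZ3 and JAZ10 were higher in all 6, and JAZ9 overlapped. The gene totals do not say on which side of an insertion the reads lie. MYC2, MYC3 and MYC4 overlapped between libraries with and without the myc mutations (13.2 to 23.9 TPM against 23.7 to 39.3 TPM for MYC2), so these totals do not check the myc labels. Markers of root and shoot were present in every genotype. The summed level of 13 root markers, in TPM, ranged over 3891 to 4550 in jazQ libraries, 3296 to 3802 in mycT libraries, 3595 to 4351 in jazQ mycT libraries and 3505 to 3601 in Col-0 libraries. Nearly all of this was PYK10, and the other 12 markers summed to 92.8 to 109.5 in jazQ, 102.0 to 102.6 in mycT, 86.5 to 97.6 in jazQ mycT and 96.5 to 109.6 in Col-0. Of the 12 root markers tested, 6 had positive and 6 negative log2 fold changes in jazQ relative to Col-0. The 13 shoot markers summed to 33443 to 36549 in jazQ, 35307 to 41301 in mycT, 29561 to 38036 in jazQ mycT and 30622 to 34324 in Col-0. Shoot markers had 7 positive and 6 negative log2 fold changes in jazQ relative to Col-0. In mycT relative to Col-0, 10 shoot markers were positive and 3 negative, and edgeR called 3 higher, against 0.957% of all genes tested. Root markers there were 8 positive and 4 negative, with 0 called. In jazQ mycT relative to Col-0, 1 root and 1 shoot marker were called higher, and 5.48% of all genes were called in either direction. No marker of either list was at 0 in all libraries.

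In jazQ, ORA59, ERF1A and ERF2 fell, and all 8 tested members had a negative log2 fold change relative to Col-0. ERF2, a transcriptional activator that binds the GCC-box, had 10.47, 11.06 and 6.95 TPM in jazQ, against 29.84, 39.42 and 38.14 TPM in Col-0. The groups did not overlap, and the log2 fold change was −1.90 ± 0.33 (SE, n = 3 each; edgeR quasi-likelihood test, Benjamini-Hochberg adjusted p = 0.00955). ORA59, the main activator of PDF1.2a in the combined response to JA and ethylene, had 1.94, 3.20 and 1.54 TPM in jazQ, against 6.40, 5.92 and 4.96 TPM in Col-0. Its highest jazQ library was below its lowest Col-0 library, with a log2 fold change of −1.37 ± 0.29 (SE, n = 3 each; edgeR, adjusted p = 0.028). ERF1A, a close relative of ERF2 that also activates through the GCC-box, had 21.86, 24.09 and 13.23 TPM in jazQ, against 54.91, 51.07 and 46.67 TPM in Col-0. These groups were likewise apart, with a log2 fold change of −1.36 ± 0.32 (SE, n = 3 each; edgeR, adjusted p = 0.0428). Of all 20888 genes tested, 1.11% were called lower in jazQ, against 3 of the 8 members. DESeq2 called 4, adding ERF104. The median log2 fold change was −1.32 over the 8 members and −0.0069 over all genes tested. The ERF2 call was made under all 22 alternatives run. The ORA59 call was lost under 5 and the ERF1A call under 8, mostly where a Col-0 or jazQ library was left out (adjusted p up to 0.111 for ORA59 and 0.132 for ERF1A).

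The other 5 tested members were not called in jazQ. ERF104, an ethylene response factor that is a partner of the MAP kinase MPK6, had 44.91, 39.65 and 31.43 TPM in jazQ, against 87.14 to 99.31 TPM in Col-0. All jazQ libraries were below all Col-0 libraries, with a log2 fold change of −1.27 ± 0.34 (SE, n = 3 each; edgeR, adjusted p = 0.0663), and 8 of 22 alternatives called it lower, DESeq2 among them. ERF5 had 18.42, 20.89 and 6.61 TPM in jazQ and 33.83, 38.32 and 63.75 TPM in Col-0. ERF6, a substrate of stress-activated MAP kinases that with ERF5 takes part in defence and stress growth control, had 37.12, 42.01 and 23.26 TPM in jazQ and 36.10, 49.65 and 121.2 TPM in Col-0. ERF6 was the 1 tested member whose jazQ and Col-0 libraries overlapped. The other 7 of 8 were lower in every jazQ library than in every Col-0 library, as were 9.07% of all genes tested. ERF5 and ERF6 varied 1.88-fold and 3.36-fold among the Col-0 libraries themselves, and neither was called (log2 fold changes −1.56 ± 0.61 and −1.02 ± 0.60, SE, n = 3 each; edgeR, adjusted p = 0.215 and 0.441). With 1 library left out the value ran from −1.82 to −1.20 for ERF5 and from −1.35 to −0.29 for ERF6, the smaller size in both cases without Col-0 replicate 3.

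**Figure D2:**
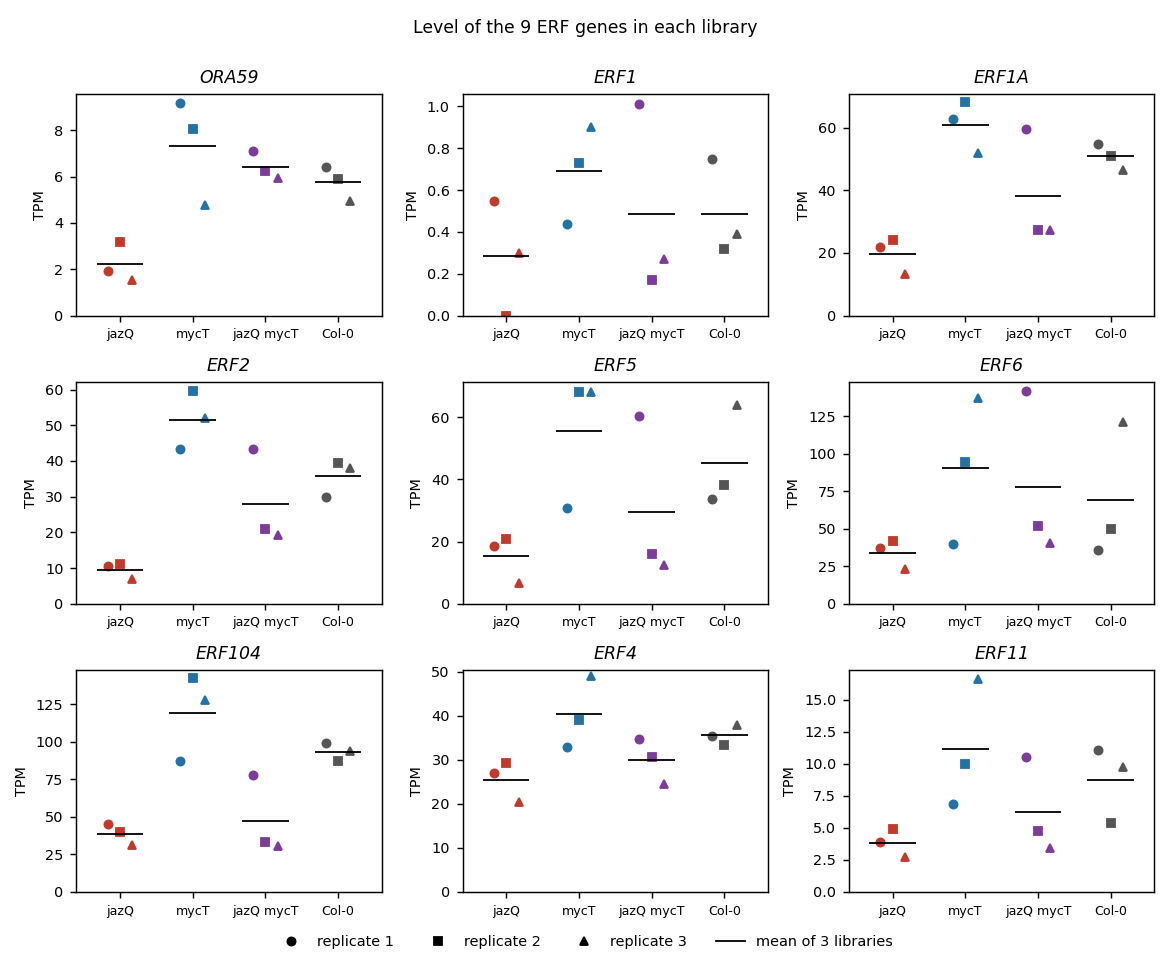
Level in TPM (y axis, linear from 0, scaled per gene) of the 9 ERF genes in each library, by genotype, with 1 point per library and a line at the mean of 3. ORA59 lay at 1.54 to 3.20 TPM in jazQ and at 4.78 to 9.20 TPM in the other 9 libraries, whereas jazQ mycT replicate 1 stands above replicates 2 and 3 for ERF1A, ERF2, ERF5, ERF6, ERF104 and ERF11.

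ERF4 and ERF11 differ from the other members in function, since both carry an EAR motif and repress transcription from GCC-box promoters. ERF4 had 26.92, 29.22 and 20.30 TPM in jazQ, against 35.41, 33.30 and 37.90 TPM in Col-0. Its difference was the smallest of the 8, at −0.48 ± 0.19 on the log2 scale (SE, n = 3 each; edgeR, adjusted p = 0.212). ERF11 had 3.87, 4.91 and 2.75 TPM in jazQ, against 11.06, 5.35 and 9.73 TPM in Col-0. Neither repressor overlapped between the genotypes and neither was called (ERF11 log2 fold change −1.21 ± 0.48, SE, n = 3 each; edgeR, adjusted p = 0.221). Both had log2 fold changes of the same sign as those of the activators among the members.

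ERF1, the other activator of the branch, was close to the limit of detection in these seedlings. It had 7, 0 and 3 counts in jazQ (0.55, 0 and 0.30 TPM) and 7, 11 and 8 counts in mycT (0.44, 0.73 and 0.90 TPM). It had 17, 2 and 4 counts in jazQ mycT (1.01, 0.17 and 0.27 TPM), against 14, 3 and 5 counts in Col-0 (0.75, 0.32 and 0.39 TPM). The 4 genotypes overlapped, and the filter on low counts removed the gene before the test. A difference in ERF1 between genotypes was therefore not tested.

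In mycT, none of the 8 tested members was called, although every log2 fold change was positive. ORA59 had 9.20, 8.06 and 4.78 TPM in mycT, against 4.96 to 6.40 TPM in Col-0 (log2 fold change 0.47 ± 0.25, SE, n = 3 each; edgeR, adjusted p = 0.373). ERF2 had 43.24, 59.52 and 51.93 TPM in mycT, against 29.84 to 39.42 TPM in Col-0. ERF2 was the 1 member whose mycT libraries all lay above the Col-0 libraries, which held for 4.09% of all genes tested, at a log2 fold change of 0.62 ± 0.29 (SE, n = 3 each; edgeR, adjusted p = 0.302). ERF1A had 62.93, 68.14 and 51.90 TPM and ERF104 had 87.16, 142.1 and 127.5 TPM in mycT, both overlapping with Col-0. By edgeR 0 of the 8 members passed and 0 had an unadjusted p under 0.05, DESeq2 called 0, and 1.8% of all genes tested were called in either direction. The median log2 fold change was 0.40 over the members.

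In jazQ mycT, ORA59 and ERF2 rose relative to jazQ. The jazQ libraries are those compared with Col-0 above, so that fall and this rise are not independent. ORA59 had 7.11, 6.23 and 5.93 TPM in jazQ mycT, against 1.94, 3.20 and 1.54 TPM in jazQ. The lowest jazQ mycT library was above the highest jazQ library, and the log2 fold change was 1.64 ± 0.29 (SE, n = 3 each; edgeR, adjusted p = 0.00864). ERF2 had 43.29, 21.06 and 19.25 TPM in jazQ mycT, against 10.47, 11.06 and 6.95 TPM in jazQ, with a log2 fold change of 1.69 ± 0.33 (SE, n = 3 each; edgeR, adjusted p = 0.0178). Its groups were also apart, but replicate 1 was well above replicates 2 and 3. ERF1A had 59.48, 27.48 and 27.44 TPM in jazQ mycT and lay above jazQ without overlap, but it was not called (log2 fold change 1.09 ± 0.32, SE, n = 3 each; edgeR, adjusted p = 0.117). These 3 of 8 members were higher in every jazQ mycT library than in every jazQ library, as were 3.23% of all genes tested. Calls of a rise were made for 2 of 8 members and for 1.33% of all genes. The ORA59 call was lost without jazQ replicate 1 (adjusted p = 0.0505) and held under the other 21 of 22 alternatives. The ERF2 call held under 17 of 22, with an adjusted p of at most 0.0657. Related genes had positive values here as well. The 6 other tested group IX ERF genes were all positive relative to jazQ, with a median log2 fold change of 1.14, 4 unadjusted p-values under 0.05, 0 calls by edgeR and 1 by DESeq2. Of 20 tested genes of rapid touch and wound responses, 17 were positive, with a median of 0.47, 3 unadjusted p-values under 0.05 and 0 calls by edgeR or DESeq2. The part of these lists in the members' rise was not tested.

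Relative to Col-0, no member was called in jazQ mycT. ORA59 was at 5.93 to 7.11 TPM in jazQ mycT and at 4.96 to 6.40 TPM in Col-0 (log2 fold change 0.27 ± 0.25, SE, n = 3 each; edgeR, adjusted p = 0.605). ERF104 had 78.11, 33.29 and 30.37 TPM in jazQ mycT, against 99.31, 87.14 and 93.55 TPM in Col-0. All 3 libraries were below Col-0, as they were for 20.6% of all genes tested, but by unequal amounts, and ERF104 was not called (log2 fold change −0.83 ± 0.33, SE, n = 3 each; edgeR, adjusted p = 0.176). By edgeR 0 of 8 members passed, 1 had an unadjusted p under 0.05, DESeq2 called 0, and 5.48% of all genes tested were called. Relative to mycT, ERF104 fell, with 78.11, 33.29 and 30.37 TPM in jazQ mycT, against 87.16, 142.1 and 127.5 TPM in mycT. The groups did not overlap, which with this sign held for 11.8% of all genes tested. The log2 fold change was −1.26 ± 0.33 (SE, n = 3 each; edgeR, adjusted p = 0.0355), and 3.77% of all genes tested were called lower, against 1 of 8 members. This call held under 16 of 22 alternatives and was lost without mycT replicate 2 or 3, jazQ mycT replicate 2 or 3 or Col-0 replicate 2 (adjusted p up to 0.125), and with the compared genotypes alone (adjusted p = 0.0924). ORA59 in the same comparison differed by −0.21 ± 0.25 on the log2 scale (SE, n = 3 each; edgeR, adjusted p = 0.665).

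ERF5, ERF6, ERF4 and ERF11 passed no test with all 12 libraries, and their libraries spread widely in the lines with myc mutations. ERF5 had 60.39, 15.95 and 12.60 TPM in jazQ mycT and 30.69, 68.24 and 67.99 TPM in mycT. ERF6 had 142, 51.90 and 40.44 TPM in jazQ mycT and 39.89, 94.68 and 136.9 TPM in mycT. For both genes replicate 1 was the highest library of jazQ mycT and the lowest of mycT, so the genotypes overlapped. ERF11 had 10.55, 4.71 and 3.43 TPM in jazQ mycT and 6.85, 9.99 and 16.60 TPM in mycT, with the same arrangement of libraries. ERF4 spread less, with 34.64, 30.53 and 24.39 TPM in jazQ mycT and 32.98, 39.05 and 48.89 TPM in mycT. Relative to mycT the log2 fold changes were −0.80 ± 0.57 for ERF5, −0.11 ± 0.57 for ERF6, −0.73 ± 0.44 for ERF11 and −0.40 ± 0.18 for ERF4 (SE, n = 3 each; edgeR, adjusted p = 0.432, 0.934, 0.342 and 0.211). Relative to jazQ all 4 were positive, between 0.34 ± 0.19 for ERF4 and 1.36 ± 0.60 for ERF6 (SE, n = 3 each; edgeR, adjusted p = 0.41 and 0.304).

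**Figure D3:**
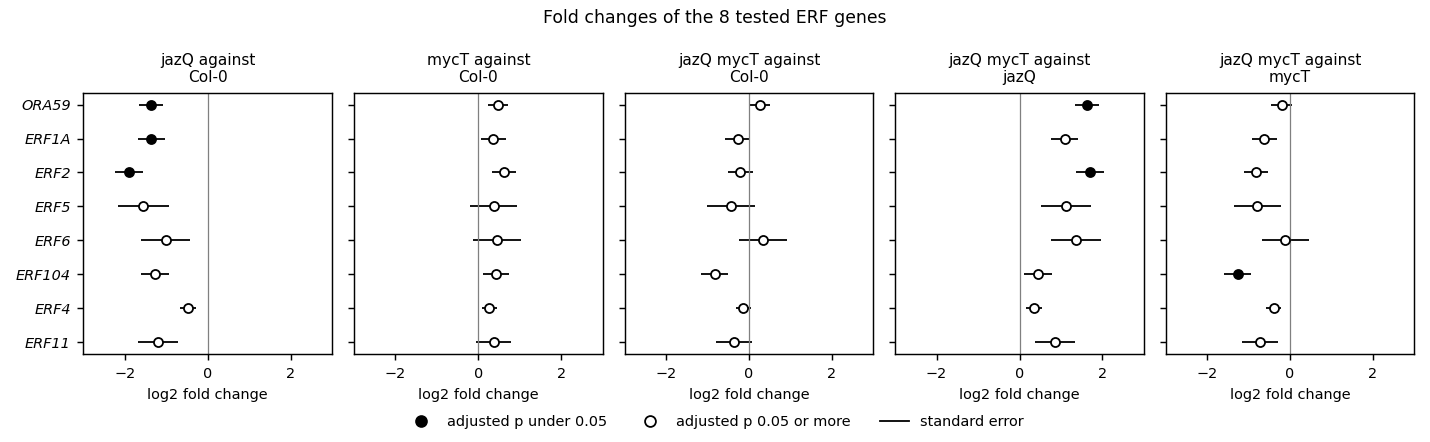
Log2 fold change (x axis) of the 8 tested ERF genes in 5 comparisons, with standard errors as bars and filled points where the adjusted p was under 0.05. ORA59, ERF1A and ERF2 are filled on the negative side for jazQ against Col-0, ORA59 and ERF2 on the positive side for jazQ mycT against jazQ, and ERF104 on the negative side for jazQ mycT against mycT. The 3 comparisons with Col-0 share its libraries, and jazQ against Col-0 and jazQ mycT against jazQ share the jazQ libraries.

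Whether the effect of mycT differed between jazQ and Col-0 was tested as an interaction. By edgeR 0 of the 8 members passed, 2 had an unadjusted p under 0.05, DESeq2 called 0, and 0.579% of all genes tested were called. The interaction was 1.17 ± 0.39 on the log2 scale for ORA59 (SE; edgeR, adjusted p = 0.28) and 1.07 ± 0.44 for ERF2 (SE; edgeR, adjusted p = 0.381). It was 0.01 ± 0.46 for ERF104 (SE; edgeR, adjusted p = 0.997). A difference in the effect of mycT between the backgrounds was thus not established for any member.

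Replicate 1 of jazQ mycT stood apart for most members, and ORA59 was an exception. Its level divided by the mean of replicates 2 and 3 was 2.17 for ERF1A, 2.15 for ERF2, 4.23 for ERF5, 3.08 for ERF6, 2.45 for ERF104 and 2.59 for ERF11. The ratio was 1.17 for ORA59 and 1.26 for ERF4. In all, 6 of the 8 tested members were at least 1.5 times as high in this library as in both others, a property of 1.79% of all genes tested. It also held for 12 of 20 tested genes of rapid responses to touch and wounding, such as WRKY and ZAT factors, and for 3 of 6 other group IX ERF genes. It held for 0 of 13 ethylene signalling genes, 0 of 7 defence genes of the branch, 0 of 6 other group VIII ERF genes and 0 of 13 shoot markers, and for 2 of 11 ethylene synthesis genes and 1 of 12 root markers. The same library had the highest rRNA share, and the part of either in the members' levels was not tested. Leaving this library out lowers the jazQ mycT values of the members that were high in it. The fits without it, which rest on replicates 2 and 3 of jazQ mycT, are therefore descriptions. Without it, ERF104 fell by 1.52 on the log2 scale in jazQ mycT relative to Col-0 (adjusted p = 0.000684), ERF1A fell by 0.86 (adjusted p = 0.0255) and ERF2 fell by 0.79 (adjusted p = 0.0294; edgeR). ORA59 remained close to Col-0 without it, with a log2 fold change of 0.11 (edgeR, adjusted p = 0.882). Relative to mycT, ERF104, ERF2, ERF1A and ERF5 were then called lower, at log2 fold changes of −1.95, −1.41, −1.21 and −2.01 (edgeR, adjusted p = 0.000124, 0.000932, 0.00353 and 0.0278). Relative to jazQ, the rise of ORA59 was then 1.48 and that of ERF2 1.11 on the log2 scale (edgeR, adjusted p = 0.0395 and 0.0131).

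**Figure D4:**
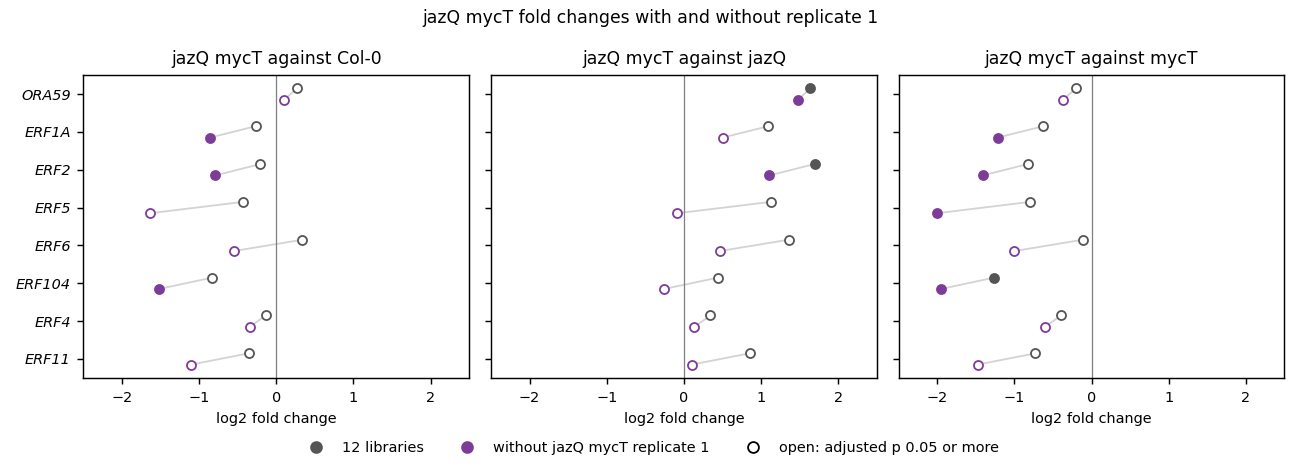
Log2 fold change (x axis) of the 8 tested ERF genes in jazQ mycT against Col-0, jazQ and mycT, from all 12 libraries (grey) and without jazQ mycT replicate 1 (purple), with filled points where the adjusted p was under 0.05. Without that library the number of members called was 3 against Col-0, 2 against jazQ and 4 against mycT, in place of 0, 2 and 1. Leaving it out lowers the jazQ mycT values of members that were high in it. Over all genes, 1145, 461 and 1635 were called in these comparisons with all 12 libraries. With any 1 library left out they numbered 558 to 1355, 254 to 542 and 778 to 1815.

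The members other than ORA59 also varied together within genotypes. After the genotype mean was taken from each log2 level, the 21 pairs without ORA59 had Pearson correlations between 0.51 and 0.95 over the 12 libraries, with a median of 0.83. The 7 pairs with ORA59 had correlations between −0.06 and 0.70, with a median of 0.25. These are descriptions, since the genes share libraries and their depth. The libraries include jazQ mycT replicate 1, which stood apart for most members but not for ORA59. Its part in these correlations was not tested. Over all 12 libraries, the genes most like ORA59 were AGL65 (r = 0.924), the kinase gene CIPK7 (r = 0.915) and AT1G52270 (r = 0.908). Those most like ERF2 were AT1G72920, AT5G03380 and BBX32 (r = 0.955 for each). Those most like ERF1A were AT3G15760 (r = 0.957), the glucosyltransferase gene DOGT1 (r = 0.949) and AT5G03380 (r = 0.946). The gene most like ERF104 was MKK9 (r = 0.983), a MAP kinase kinase of stress and ethylene responses, followed by KCS2 (r = 0.966) and LSH3 (r = 0.965).

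The 4 tested defensin genes, of the kind that ORA59 and ERF1 are known to activate, had their lowest mean levels in jazQ and their highest in the lines with myc mutations. PDF1.2a had 0.54, 0 and 0.23 TPM in jazQ, 18.01, 22.16 and 21.78 in mycT and 10.18, 15.53 and 23.09 in jazQ mycT, against 0.59, 0.73 and 7.25 TPM in Col-0. All libraries with myc mutations were above all libraries without them, and Col-0 replicate 3 was well above Col-0 replicates 1 and 2. PDF1.2a rose in jazQ mycT relative to jazQ (304 counts against 4 over 3 libraries each; log2 fold change 5.85 ± 0.90, SE; edgeR, adjusted p = 0.0032). Scaled to library totals, these counts gave a ratio of 59.6 with an exact 95% interval of 23.0 to 220.2, which covers counting error only. PDF1.3 had 0, 0 and 0.40 TPM in jazQ, 35.57, 41.91 and 43.22 in mycT and 58.61, 54.62 and 76.79 in jazQ mycT, against 0.73, 1.68 and 16.82 TPM in Col-0. PDF1.2b and PDF1.2c had no counts in any jazQ library. Against an assumed floor of 3 counts over the jazQ group, each had a ratio of 23.5 in jazQ mycT. This ratio leaves out counting error and the spread between libraries. Between 0.482% and 4.42% of the 50-base stretches of each of these 4 genes occur elsewhere in the genome, and reads assigned to the wrong copy were not tested for.

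Of the 7 tested defence genes of the branch, 5 rose in jazQ mycT relative to jazQ, namely the 4 defensin genes and PR4, which encodes a hevein-like protein (log2 fold change 0.92 ± 0.13, SE, n = 3 each; edgeR, adjusted p = 0.00141). Of all genes tested, 1.33% were called higher in that comparison. PR3, a chitinase gene, and OSM34, an osmotin gene, were not called there and fell relative to mycT (log2 fold changes −0.89 ± 0.16 and −0.64 ± 0.15, SE, n = 3 each; edgeR, adjusted p = 0.00471 and 0.0235). The OSM34 call was lost under 9 of 22 alternatives, among them without jazQ mycT replicate 1 (−0.48, adjusted p = 0.0733). The median log2 fold change relative to jazQ was 5.85 as fitted and 4.56 with PDF1.2b and PDF1.2c set against the assumed jazQ floor. In jazQ relative to Col-0 all 7 had negative log2 fold changes, with a median of −3.26 as fitted and −1.85 with that floor. None of these was called by edgeR, all 7 had an unadjusted p under 0.05, and DESeq2 called 3. In mycT relative to Col-0, where 0.957% of all genes tested were called higher, PDF1.2a (log2 fold change 2.95 ± 0.58) and PDF1.3 (2.76 ± 0.60) rose (SE, n = 3 each; edgeR, adjusted p = 0.0284 and 0.0403). PDF1.2b (2.23 ± 0.49) and PDF1.2c (2.63 ± 0.65) were not called there (log2 fold changes, SE, n = 3 each; edgeR, adjusted p = 0.0528 and 0.0731). DESeq2 called 0 of the 7 in mycT, with an adjusted p of 0.106 for PDF1.3 and none given for PDF1.2a. In jazQ mycT relative to Col-0, where 5.48% of all genes tested were called, PDF1.2a (2.59 ± 0.58), PDF1.2b (2.71 ± 0.47), PDF1.3 (3.43 ± 0.59) and PR4 (0.62 ± 0.12) rose and PR3 (−0.64 ± 0.16) fell (log2 fold changes, SE, n = 3 each; edgeR, adjusted p = 0.0223, 0.00831, 0.005, 0.0117 and 0.0321). Under the alternatives the mycT calls were lost in 9 of 21 for PDF1.2a and in 16 of 22 for PDF1.3, mostly with 1 library left out, and those of PR3 and PDF1.2a in jazQ mycT relative to Col-0 in 10 and 6 of 22. With 1 library left out, log2 fold changes in mycT ran from 2.32 to 5.02 for PDF1.2a and from 2.08 to 5.28 for PDF1.3. In jazQ mycT relative to Col-0 they ran from 1.96 to 4.67 for PDF1.2a, 2.12 to 3.54 for PDF1.2b and 2.75 to 5.96 for PDF1.3. In each case the lowest was without Col-0 replicate 1 and the highest without Col-0 replicate 3. ORA59 itself was not called in mycT or jazQ mycT relative to Col-0.

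**Figure D5:**
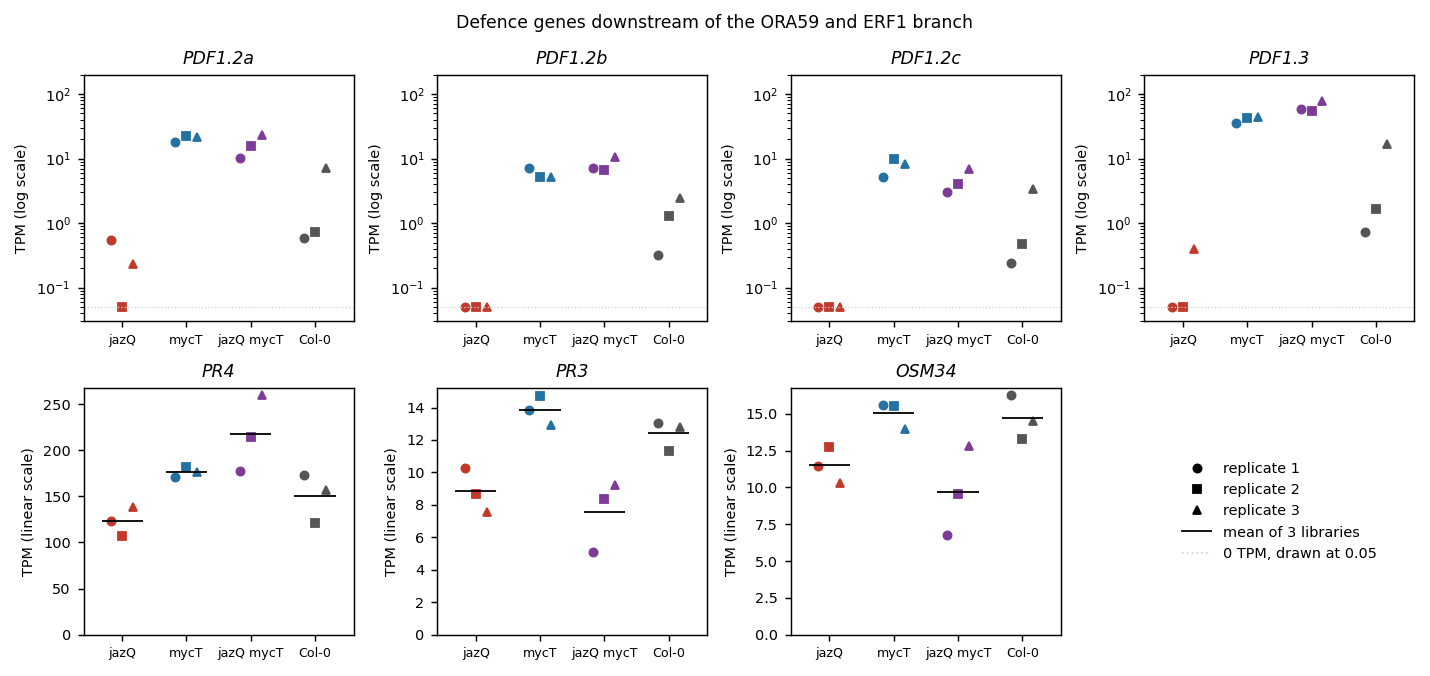
Level in TPM of 7 defence genes of the branch in each library by genotype, with 1 point per library. The 4 defensin genes are on a log axis with 0 TPM drawn at 0.05, and PR4, PR3 and OSM34 on a linear axis from 0 with a line at the mean of 3 libraries. All mycT and jazQ mycT libraries lie above all jazQ libraries for the 4 defensin genes.

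Some genes that make ethylene were called, and no ethylene signalling gene was called by edgeR in any comparison. In jazQ mycT relative to Col-0, 5.48% of all genes tested were called. Of 11 tested ethylene synthesis genes, those called lower there included ACO4 and ACO5, which encode enzymes of the last step (log2 fold changes −0.38 ± 0.09 and −0.70 ± 0.16, SE, n = 3 each; edgeR, adjusted p = 0.0264 and 0.0211). The ACO4 call was lost under 7 of 22 alternatives and the ACO5 call under 4. Of 13 tested ethylene signalling genes, among them the receptors, CTR1, EIN2, EIN3 and EIL1, edgeR called 0 in jazQ, and 3 had an unadjusted p under 0.05. The largest differences were in EBF2 and EBF1, which encode F-box proteins that remove EIN3, at −0.78 ± 0.20 and −0.48 ± 0.14 on the log2 scale (SE, n = 3 each; edgeR, adjusted p = 0.0544 and 0.0907), and DESeq2 called both lower. The median over the 13 genes was 0.0061 on the log2 scale.

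Other ERF genes of the same groups were mostly not called. Of 6 other tested group VIII genes, to which ERF4 and ERF11 belong, only ERF9 was called in jazQ, with 1.62, 2.20 and 1.61 TPM in jazQ, against 5.38, 4.01 and 2.48 TPM in Col-0 (log2 fold change −1.15 ± 0.28, SE, n = 3 each; edgeR, adjusted p = 0.0453). The ERF9 call was lost under 13 of 22 alternatives. Of 6 other tested group IX genes, edgeR and DESeq2 called 0 in jazQ and 0 had an unadjusted p under 0.05, and all 6 log2 fold changes were negative with a median of −0.39. The largest were those of ERF105 (−1.37 ± 0.75) and ERF13 (−1.08 ± 0.79) (log2 fold changes, SE, n = 3 each; edgeR, adjusted p = 0.397 and 0.559), and without Col-0 replicate 3 they were −0.64 and −0.26. The 20 tested genes of rapid touch and wound responses had a median log2 fold change of −0.44 in jazQ, where 14 were negative, 3 had an unadjusted p under 0.05 and edgeR and DESeq2 called 0. Among them ZAT10 and WRKY46 differed most, by −1.02 ± 0.51 and −0.95 ± 0.59 on the log2 scale (SE, n = 3 each; edgeR, adjusted p = 0.351 and 0.471), and WRKY46 by −0.48 without Col-0 replicate 3. The part of this list in the members' lower levels in jazQ was not tested.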

How the data were processed

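RNA from 12 libraries was sequenced as single-end reads. Per the labels and the paper's methods, the authors assigned reads to TAIR10 gene models with RSEM v1.2.11 and deposited expected counts, which are whole numbers, and TPM, which is scaled to gene length and library total. The aligner and the strand setting are not given in the sources used here. Counts were tested with edgeR v4.0.16 (glmQLFit, glmQLFTest) in R v4.3.3 over all 12 libraries, with a term per genotype, TMM and filterByExpr, which kept 20888 genes. Calls required a p under 0.05 after Benjamini-Hochberg adjustment over these genes. Standard errors are the log2 fold change divided by the root of the F statistic. TPM are given per library. In counts simulated for jazQ against Col-0, 90 of 100 genes changed 2-fold and 100 of 100 changed 4-fold were recovered, with 13 false calls among 203. Alternatives used DESeq2 v1.42.0 (count model), limma v3.58.1 on log2(TPM + 1), other filters, a replicate block and libraries left out. Deviations of same-numbered Col-0 and mycT libraries had positive correlations for every replicate number (0.251, 0.134 and 0.307). Each other pair of genotypes had correlations of both signs, between −0.195 and 0.163. The genes named are the members, the called genes of each list (or the 2 with the largest change) and the 3 genes most correlated with a called member. The members, lists and motifs were chosen with earlier results of these data known. Gene positions, neighbours and sequences are from RefSeq TAIR10.1, in which all 9 members were found. The results of 1 gene of the ethylene synthesis list are not reported here.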

Additional observations from a re-analysis of the deposited data

How the results depend on the processing

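Each result was recomputed under up to 22 alternatives (21 for the interaction), 12 of which left out 1 library. PDF1.2b had no value with a minimum mean CPM of 1. Members called in jazQ relative to Col-0 numbered 1 with limma on log2(TPM + 1) without a filter, 5 without both libraries richest in rRNA (mycT replicate 1 and jazQ mycT replicate 1), and 1 to 4 with 1 library left out. In jazQ mycT relative to Col-0 they numbered 1 with limma at either pseudocount (1 or 0.1), 4 without both of these libraries and 0 to 3 with 1 left out. Relative to jazQ they numbered 1 with the compared genotypes alone and 1 with limma without a filter, and 0 to 2 with 1 left out. Relative to mycT they numbered 0 with the compared genotypes alone, 5 without both libraries and 0 to 4 with 1 left out. In mycT and in the interaction they numbered 0 throughout. With replicate number as a block the calls were the same 3, 2 and 1 members (ORA59 in jazQ −1.39, adjusted p = 0.00851; edgeR), and no call of another named gene was lost but that of PR3 in jazQ mycT relative to Col-0 (−0.64, adjusted p = 0.0509), while EBF2 and EBF1 were called in jazQ (adjusted p = 0.000911 and 0.00274).

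No called member changed direction. Uncalled ones did so without both libraries richest in rRNA: ERF104 (−0.25) and ERF5 (−0.0871) relative to jazQ, ERF6 (−0.56) relative to Col-0, and in the interaction ERF104 (−0.84), ERF5 (−0.73), ERF11 (−0.51), ERF6 (−0.34) and ERF4 (−0.22), all log2. The ERF104 interaction was also negative with the block (−0.0784) and with limma (−0.15 without a filter and at a pseudocount of 1, −0.16 at 0.1). With 1 library left out, values ran from −0.68 to 0.29 for ERF104, −0.27 to 0.85 for ERF11, −0.12 to 0.25 for ERF4 and −0.45 to 1.16 for ERF5 in the interaction. For jazQ mycT they ran from −0.25 to 0.72 for ERF104 and −0.0875 to 1.52 for ERF5 relative to jazQ. Relative to Col-0 they ran from −0.79 to 0.0439 for ERF2, −0.34 to 0.0284 for ERF4 and −0.55 to 1.07 for ERF6. Relative to mycT they ran from −1.004 to 0.31 for ERF6 and −0.40 to 0.0286 for ORA59. The cause of these changes was not tested. Over all genes, 230 to 760 were called in jazQ with 1 library left out, against 597 with all 12. For jazQ mycT the genes called then numbered 558 to 1355 relative to Col-0, 254 to 542 relative to jazQ and 778 to 1815 relative to mycT. DESeq2 gave no adjusted p for 4 of the results. Low counts limit ERF1 and the defensin genes in jazQ.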
